A study of Mus musculus with 6 samples.

Results

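Retinoic acid, the acid form of vitamin A, tells male germ cells when to differentiate and when to enter meiosis. Described here are 9 genes that handle it: Rdh10, Aldh1a1 and Aldh1a2, which make it, Cyp26b1, which breaks it down, Stra6 and Crabp1, which take up its precursor or bind it, Rara and Rarg, its nuclear receptors, and Stra8, a gene that answers to it. They were taken by symbol, and all 9 were found among the 32285 genes of the count matrices. The question was which of the Sertoli, myoid, Leydig and germ cells of the testis hold their transcripts, and whether 8 weeks of nicotine changed them.

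The mice were male C57BL/6J, an inbred laboratory strain, with no other allele named in the labels. Nicotine mice (n = 3) drank water holding 200 µg/mL nicotine from the age of 3 weeks, control mice (n = 3) drank normal water, and all were 11 weeks old at sampling. Both testes of a mouse were dissociated together into 1 droplet library, read with 10x 3' v3 chemistry, in which each transcript caught by its 3' end adds 1 unique molecular identifier (UMI). The mouse is therefore the replicate, and nothing within a mouse separates its left from its right testis.

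In textbook terms, retinol enters a cell through the membrane receptor STRA6 or by diffusion, is oxidised to retinal by RDH10 and then to retinoic acid by the retinaldehyde dehydrogenases ALDH1A1, ALDH1A2 and ALDH1A3. The acid can be bound by CRABP1 in the cytosol, oxidised to inactive forms by the cytochrome P450 enzymes of the CYP26 family, or carried by its receptors to DNA, where they pair with retinoid X receptors on repeats of a short half-site. In the fetal mouse testis CYP26B1 keeps retinoic acid away from germ cells. After birth, the acid reaches germ cells in pulses along the tubule and turns on Stra8, which differentiating spermatogonia and cells at the start of meiosis need.

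The 6 libraries held 67853893 to 88329607 UMIs, and 61945 barcodes passed the filters and are called cells. Any pair of libraries shared 25 to 54 barcodes. Clustering without the retinoic acid genes gave 50 clusters, of which 32 received a class name, written as "-like", from marker genes; 8615 cells (13.9%) stayed in unnamed clusters. Levels are given as CPM, the UMIs of a gene per 1000000 UMIs summed over the cells of a class in 1 mouse, as mean ± SD over 6 mice unless stated. The prefix low-UMI marks germ cell clusters with a median UMI number under 2467, the median of all kept cells. The low-UMI round spermatid-like class was mixed. Of its 12309 cells, 6297 lay in a cluster led by haemoglobin genes (Hbb-bs and Hba-a1), at a median of 857 UMIs. Its levels are therefore not those of round spermatids alone. Sertoli-like cells were shallow as well, with a median of 952 UMIs per cell over 4586 cells, against 6674 UMIs in 424 Leydig-like cells. The late spermatocyte-like name was weak. Of its 1469 cells, 1300 lay in a cluster whose late spermatocyte markers averaged 0.31 above the other clusters on the log2 scale. The minimum for a name was 0.3, and the round spermatid markers of that cluster averaged 0.26. No cluster could be named myoid. Among the 552 stromal-like cells, 9 of 10 stromal markers but 1 of 9 myoid markers were found in at least 10% of cells; the myoid markers summed to 246 to 316 CPM in control and 253 to 306 CPM in nicotine mice, and Myh11 and Cnn1, which define contractile cells, each had no UMI in 1 of the 2 stromal-like clusters.

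Of the 9 genes, 8 had a promoter in the RefSeq table (GRCm38.p6), with 16 promoters in all; Rdh10 had none. The 250 bases before each start were searched on both strands for AGGTCA and AGTTCA, the letters of a retinoic acid receptor half-site. Stra8 held 2 half-sites, 1 of the 4 Rara promoters held 1, 1 of the 2 Rarg promoters held 1, and the others held none. Among 32851 promoters of that length, 24.2% held at least 1 and 3.7% held at least 2. No member had 2 half-sites in direct repeat with a spacer of 1, 2 or 5 bases, an arrangement found in 0.137% of all promoters. A match describes letters only, and no match says only that these letters are not in the window. The 2 Stra8 sites are shown in windows of 30 bases because Stra8 is the response gene of the set; capitals mark AGGTCA. They lie at chr6:34920742-34920771 and chr6:34920898-34920927 on the plus strand, within the gene's GENCODE span and before its RefSeq start. For contrast follow 152 bases before Cyp26b1 that lie outside its annotated exons (chr6:84593909-84594060, minus strand) and 250 bases before Crabp1 (chr9:54764498-54764747, plus strand), the genes whose transcripts were most restricted to 1 class below; neither stretch holds either half-site.
Stra8, farther site: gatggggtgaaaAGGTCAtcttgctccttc
Stra8, nearer site: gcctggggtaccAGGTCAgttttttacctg
Cyp26b1, before the start: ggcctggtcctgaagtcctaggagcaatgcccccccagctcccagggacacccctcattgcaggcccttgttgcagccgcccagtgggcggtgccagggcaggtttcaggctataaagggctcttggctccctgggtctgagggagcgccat
Crabp1, before the start: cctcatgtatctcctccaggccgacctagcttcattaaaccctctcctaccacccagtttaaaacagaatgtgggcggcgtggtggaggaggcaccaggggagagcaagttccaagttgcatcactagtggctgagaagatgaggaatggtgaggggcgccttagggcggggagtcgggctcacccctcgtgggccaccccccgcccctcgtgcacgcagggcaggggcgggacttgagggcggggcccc

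The genes that make retinoic acid were highest in different classes. Aldh1a1 (chr19:20492715-20643465, plus strand) was highest in Leydig-like cells, Aldh1a2 in spermatocyte-like cells and Rdh10 in spermatid-like cells. Rdh10 and Aldh1a2 are the 2 members of this step in which germ cells held most of the UMIs. Germ cells also held most of the UMIs of all genes, with 44.4% in round and 29.8% in elongating spermatid-like cells. Aldh1a2 was not confined to them: Leydig-like (83.3 CPM) and Sertoli-like cells (64.2 CPM) were above the pooled 48.7 CPM of all kept cells. Sertoli-like cells led for none of the 3 genes.

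Aldh1a1 encodes a retinaldehyde dehydrogenase of the cytosol. In Leydig-like cells, the androgen-making cells between the tubules, its level was 2255, 2670 and 3274 CPM in the control mice and 2761, 2919 and 3131 CPM in the nicotine mice, or 2835 ± 362 CPM over all 6. These 424 cells held 58.4% of the 12510 Aldh1a1 UMIs, and 86.1% of them had at least 1. In the larger Leydig-like cluster of 334 cells, all had at least 1. Stromal-like cells followed with 753 ± 153 CPM, low-UMI round spermatid-like cells with 144 ± 16.1 CPM and Sertoli-like cells with 89.5 ± 16.2 CPM. That order held in 6 of 6 mice at each step, with a drop of 1.93 on the log2(CPM + 1) scale from Leydig-like to stromal-like cells. Round spermatid-like cells were at 1.94 ± 0.377 CPM, with a UMI in 3.42% of cells and in 0.161% after thinning every cell to 500 UMIs. No UMI was seen in 52 spermatogonium-like or 52 lymphocyte-like cells, which in each allows a share of up to 5.77% of cells with a UMI.

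The Aldh1a1 value in low-UMI round spermatid-like cells came mainly from 1 cluster. That cluster of 3978 cells reached 316 CPM, held 17.7% of all Aldh1a1 UMIs and was led by C730002L08Rik, a gene on the opposite strand (chr19:20410544-20552330) that overlaps Aldh1a1. The level of C730002L08Rik there was 625 CPM, against 106 CPM in late spermatocyte-like, 14.5 CPM in round spermatid-like and 20.7 CPM in Leydig-like cells. C730002L08Rik was seen in 71.2% of the 1415 cells of the cluster with an Aldh1a1 UMI and in 38.2% of those without, at median depths of 1648 and 1502 UMIs. The overlap ends at 20552330 and does not reach the 3' end of Aldh1a1 at 20643465. Strand use in the counting was not given in the sources used here. Whether reads of the 2 genes were kept apart in those cells was not tested, so the Aldh1a1 level there is uncertain.

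Aldh1a2, the retinaldehyde dehydrogenase that the embryo depends on, had the most UMIs of the 9 genes (20428). Early spermatocyte-like cells held 118, 112 and 103 CPM in control and 112, 124 and 111 CPM in nicotine mice, and late spermatocyte-like cells 105, 127 and 101 CPM and 106, 114 and 107 CPM. Their means of 113 ± 7.24 and 110 ± 9.31 CPM did not separate: the order held in 5 of 6 mice, with a difference of 0.04 on the log2 scale. Of the 499 early spermatocyte-like cells, 160 lay in a Stambp-led cluster at a median of 24804.5 UMIs. The other clusters of the class had medians of 2967.5 to 8290.5 UMIs. The Stambp-led cluster therefore had the most weight in the class CPM. Piwil1, a late spermatocyte marker, was among its leading genes. Stra8 is an exception, as most of its UMIs in the class came from the Sdk1-led cluster described below. For Aldh1a2, Leydig-like cells (83.3 ± 11.7 CPM) were lower than late spermatocyte-like cells and higher than Sertoli-like cells (64.2 ± 6.8 CPM) in 6 of 6 mice. Further along the germ line the level was 136 CPM in the least advanced late spermatocyte-like cluster, 83.8 CPM in the first round spermatid-like cluster, 18 CPM in the last one and 7.08 CPM in the first elongating spermatid-like cluster. These cluster values are pooled over mice and describe the clusters; no test was made between them. The gene spans chr9:71215789-71296243 on the plus strand.

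Rdh10 (chr1:16105774-16133734, plus strand), the retinol dehydrogenase of the first step, was low in late spermatocyte-like cells and higher in most spermatid-like classes. Its level was 2.75 ± 0.801 CPM in late spermatocyte-like cells, 26 ± 3.71 CPM in round spermatid-like cells and 46.4 ± 4.51 CPM in elongating spermatid-like cells. Of these only round and elongating spermatid-like cells were neighbours in rank, with the same order in 6 of 6 mice. The step from late spermatocyte-like to round spermatid-like cells was not tested. The peak lay in 1 elongating spermatid-like cluster led by Fam71b, with 133 CPM and a UMI in 79.7% of its 1599 cells, which held 33.4% of all Rdh10 UMIs. Early in the series, the early spermatocyte-like cluster led by Sdk1 stood at 70.0 CPM. Low-UMI cells with markers of both round and elongating spermatids had the highest class mean, 99.7 ± 11.5 CPM. Low-UMI round spermatid-like cells stood at 12.2 ± 3.34 CPM, and low-UMI elongating spermatid-like cells had the lowest mean of the tested classes, 2.62 ± 1.14 CPM. Sertoli-like (7.18 ± 2.07 CPM) and Leydig-like cells (6.65 ± 3.78 CPM) were below the pooled 28.8 CPM of all kept cells. Sertoli-like cells held 34 Rdh10 UMIs, with a UMI in 0.72% of them. Single cells gated as Sertoli by markers, in place of clusters, held 17.5 CPM pooled over mice, with a UMI in 2.3%. How much of these levels is background was not tested.

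**Figure D1:**
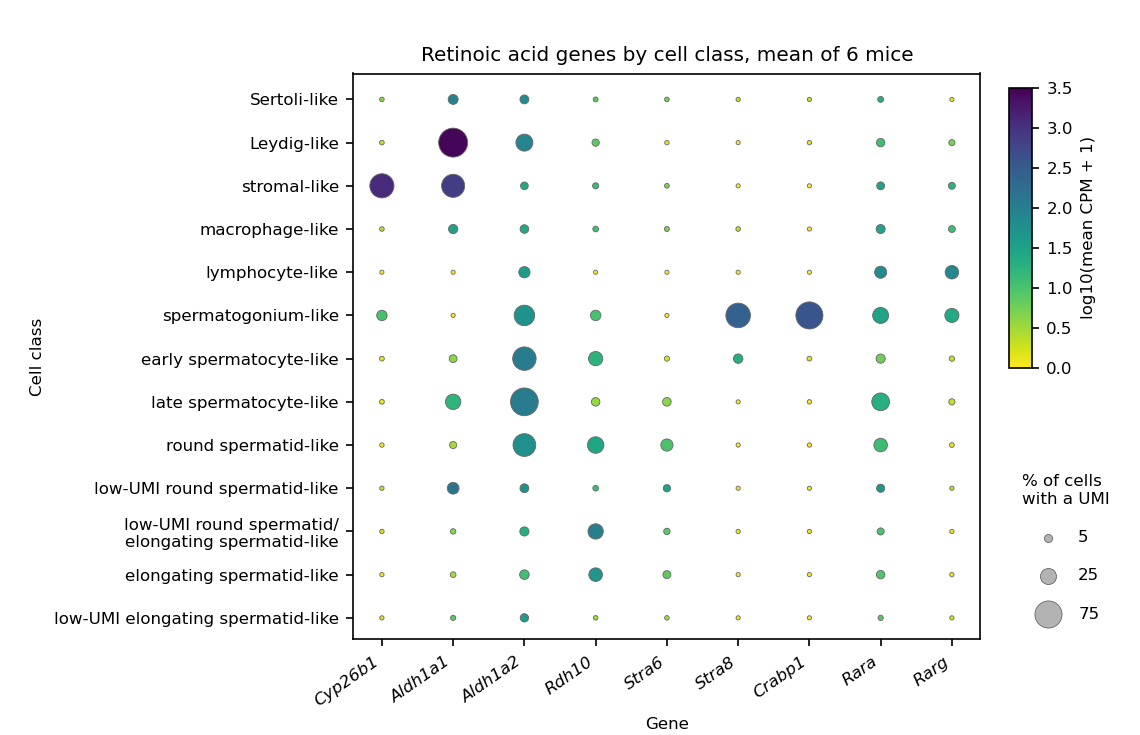
The 9 retinoic acid genes (columns) in 13 cell classes (rows); the colour of a dot is log10(mean CPM + 1) over 6 mice and its area grows with the percentage of cells with a UMI. The darkest dots are Aldh1a1 in Leydig-like cells (2835 CPM, 86.1% of cells) and Cyp26b1 in stromal-like cells (1202 CPM, 59.4% of cells).

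**Figure D2:**
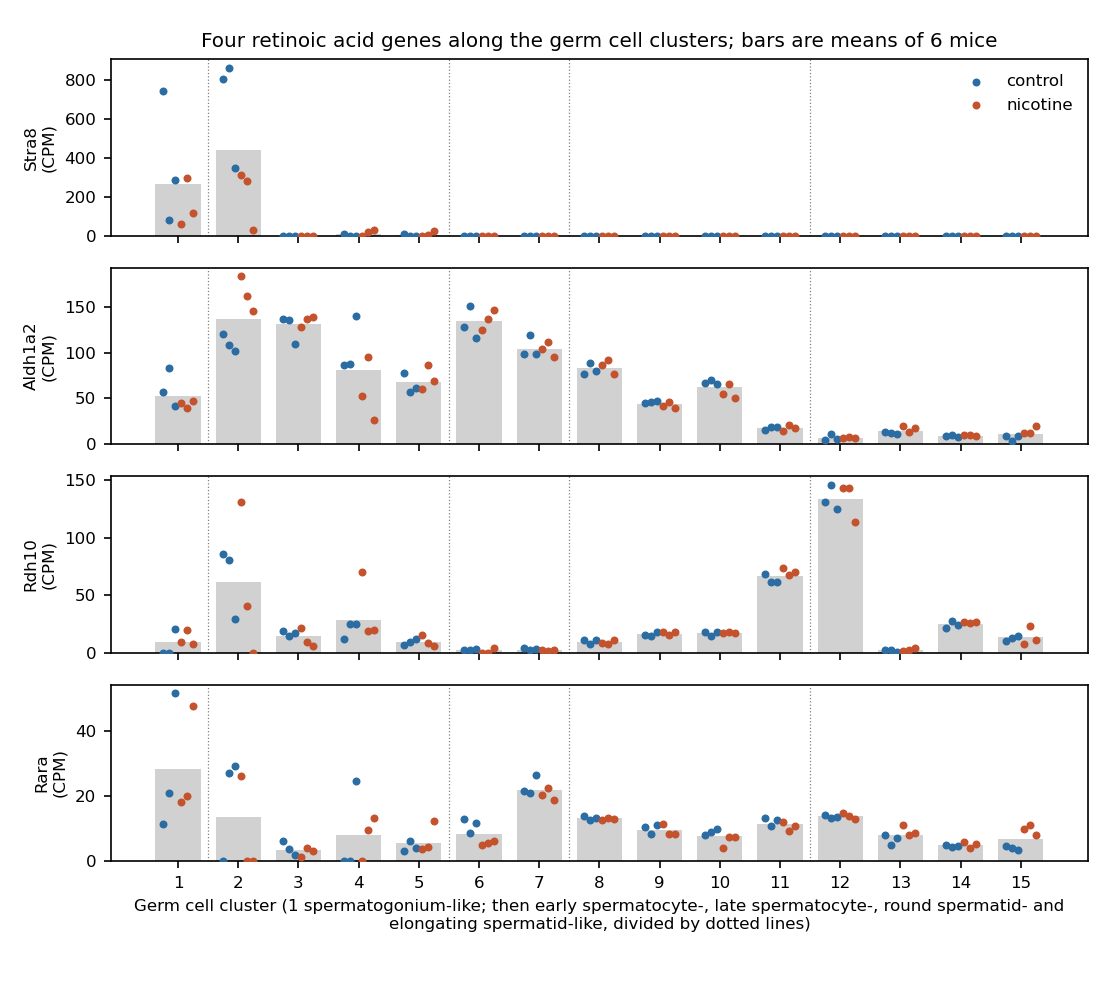
Level in CPM of Stra8, Aldh1a2, Rdh10 and Rara in 15 germ cell clusters, early ones ordered by falling spermatogonium markers and later ones by rising elongating spermatid markers; grey bars are means over 6 mice, blue points control and orange points nicotine mice, and dotted lines part the classes. Stra8 stands almost wholly in the first 2 clusters, the Aldh1a2 bars are highest in the Sdk1-led and the first late spermatocyte-like cluster (136 and 134 CPM), and the Rdh10 bar in the first elongating spermatid-like cluster (134 CPM).

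Breakdown was the most restricted step. Cyp26b1 (chr6:84571414-84593908, minus strand) had 1429 UMIs, and 88.7% of them fell in stromal-like cells. The levels there were 1336, 1435 and 1205 CPM in control and 1156, 1161 and 917 CPM in nicotine mice, a mean of 1202 ± 177 CPM. The next tested class, Sertoli-like cells, stood at 3.05 ± 1.63 CPM, lower by 8.29 on the log2 scale (SD 0.50) in 6 of 6 mice. A UMI was seen in 59.4% of stromal-like cells and, with every cell thinned to 500 UMIs, in 34.6%. In round spermatid-like cells, the tested class of lowest level, the shares were 0.241% at a median of 16018 UMIs per cell and 0 after thinning, and in Leydig-like cells both shares were 0.472%.

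Within the stromal-like cells Cyp26b1 was in both clusters and higher in 1. The cluster led by Fhl2 (159 cells) had 2457, 1975 and 2052 CPM in control and 1104, 1532 and 1445 CPM in nicotine mice, with a UMI in 69.2% of its cells. These values rest on 8 to 40 cells a mouse, and no test was made. The cluster led by Dcn (393 cells) had 694, 998 and 912 CPM and 1162, 1074 and 682 CPM. Neither carried the defining contractile genes of peritubular myoid cells at a level that would name it, with Acta2 at 6.79 CPM in the Dcn-led and 6.68 CPM in the Fhl2-led cluster. When single cells were instead gated by markers, 33 cells passed as myoid and held 1 Cyp26b1 UMI (1.14 CPM), while 554 cells gated as stromal held 978 CPM. The gate asks for UMIs of at least 3 markers, which a cell with more UMIs meets more easily. Those 33 cells also held Rdh10 at 83.4 CPM, with a UMI in 48.5%, against 16.3 CPM in cells gated as stromal. Whether the 33 cells are myoid was not tested, so their Cyp26b1 value does not speak for myoid cells. Stromal-like cells also held Aldh1a1, so a maker and the breaker of retinoic acid were found together: 208 of the 552 cells had UMIs of both genes, 120 of Cyp26b1 alone, 90 of Aldh1a1 alone and 134 of neither. The other CYP26 genes were near 0, with 15 UMIs of Cyp26a1 in Sertoli-like cells (3.22 ± 2.37 CPM) and no UMI of Cyp26c1 in any class.

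Uptake and binding fell on different germ cells. Stra6 (chr9:58063788-58153996, plus strand), the retinol transporter of the cell membrane, was highest in low-UMI round spermatid-like cells at 30.9 ± 4.64 CPM, followed by round spermatid-like cells (8.84 ± 1.22 CPM), low-UMI cells with markers of both spermatid stages (6.81 ± 2.58 CPM) and elongating spermatid-like cells (6.16 ± 1.05 CPM). The first step held in 6 of 6 mice. Sertoli-like cells held 22 Stra6 UMIs (4.60 ± 2.70 CPM), and 0.414% of them had at least 1, against 0.236% of Leydig-like cells, where 1 UMI was seen. Within the low-UMI round spermatid-like class the Agbl1-led cluster reached 84.6 CPM and the haemoglobin-led cluster 5.93 CPM. The gene Ccdc33 overlaps Stra6 on the opposite strand and stood at 146 CPM in that cluster, so the Stra6 level is uncertain in the same way as that of Aldh1a1; Ccdc33 was seen in 25.1% of its cells with a Stra6 UMI and in 19.4% of those without.

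Crabp1 (chr9:54764748-54773110, plus strand), which binds retinoic acid in the cytosol, marked the spermatogonium-like cells, the least mature germ cells of the series. It had 258 UMIs in all, 67.1% of them in these 52 cells. The level was 286, 731 and 299 CPM in control and 264, 259 and 333 CPM in nicotine mice, from 5 to 12 cells a mouse, and 39 of the 52 cells (75%) had a UMI, against 0.151% of round spermatid-like cells, which were deeper at a median of 16018 UMIs. Sertoli-like (1.28 ± 1.57 CPM) and early spermatocyte-like cells (0.404 ± 0.676 CPM) followed at 5 and 3 UMIs, in an order held by 3 of 6 mice. Crabp1 was among the genes that lead the spermatogonium-like cluster, although it took no part in forming it. Its relative Crabp2 was at most 2.65 CPM in any class.

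Both receptors were low in most classes, and Rara was spread more widely than Rarg. Rara (chr11:98927818-98974942, plus strand), a receptor known to act in mouse Sertoli cells, was at 42.3 ± 4.67 CPM in low-UMI round spermatid-like, 28.6 ± 5.42 CPM in stromal-like, 19.3 ± 2.59 CPM in late spermatocyte-like, 18.9 ± 6.38 CPM in Sertoli-like and 10.6 ± 4.77 CPM in Leydig-like cells. The steps from low-UMI round spermatid-like to stromal-like and on to late spermatocyte-like cells held in 6 of 6 mice, at 0.56 and 0.54 on the log2 scale. Spermatogonium-like cells stood at 28.3 ± 16.9 CPM and early spermatocyte-like cells at 4.93 ± 0.834 CPM. Rarg (chr15:102234938-102257517, minus strand), a receptor known to act in mouse spermatogonia, had only 236 UMIs. It stood at 22.7 ± 20.1 CPM in spermatogonium-like, 16.3 ± 8.51 CPM in stromal-like, 4.27 ± 3.70 CPM in Leydig-like and 0.250 ± 0.612 CPM in Sertoli-like cells, the last from 1 UMI. Every other tested class was at 1.18 CPM or lower. Lymphocyte-like cells, of which there were 52, had the highest means of both, 66.9 ± 21.4 CPM of Rara and 71.9 ± 25.7 CPM of Rarg, from 9 and 10 UMIs. The third receptor gene, Rarb, had no UMI in stromal-like cells, which allows a level of up to 2.90 CPM.

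Stra8 (chr6:34920163-34939344, plus strand), the gene of the response, was confined to few cells. Its 326 UMIs came from 105 cells, and the 10 highest cells held 44.5% of them, with 44, 21 and 14 UMIs in the first 3. Most lay in 2 germ cell clusters, the 52 spermatogonium-like cells at 259 CPM and the 47 early spermatocyte-like cells led by Sdk1 at 450 CPM, both pooled over mice. In the spermatogonium-like cells the mice gave 745, 83.5 and 289 CPM in control and 63.7, 298 and 119 CPM in nicotine. In the Sdk1-led cells they gave 804, 862 and 349 CPM and 314, 282 and 29 CPM, from 5 to 14 cells a mouse. The cell with 44 UMIs lay in this cluster, so 1 cell weighs heavily in the value of its mouse. No test was made in that small cluster. Of the 151 UMIs of the whole early spermatocyte-like class, over 499 cells, most came from it. No Stra8 UMI was seen in Leydig-like, stromal-like or late spermatocyte-like cells, which allows up to 1.15, 2.90 and 0.0951 CPM, and 0.0503% of round spermatid-like cells had one.

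Stra8 and Crabp1 overlapped in the first cluster and parted in the second. Of the 52 spermatogonium-like cells, 25 had UMIs of both, 7 of Stra8 alone, 14 of Crabp1 alone and 6 of neither. Of the 47 Sdk1-led cells, 28 had Stra8 and none had Crabp1. Gm4969, the partner gene of Stra8 that is also called Meiosin, followed the second pattern, with 163 CPM in the Sdk1-led and 23.2 CPM in the spermatogonium-like cells. Kit, a receptor of differentiating spermatogonia that answers to retinoic acid, was at 145 CPM in the spermatogonium-like and 13.3 CPM in the Sdk1-led cells. Sall4, another response gene, was at 56.0 CPM in the spermatogonium-like cells and had no UMI in the Sdk1-led ones.

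**Figure D3:**
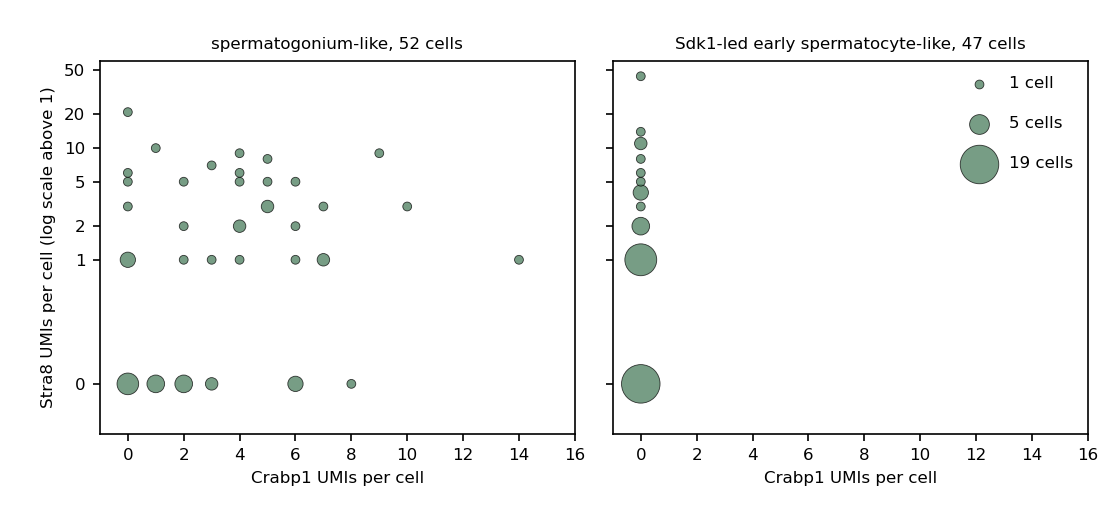
UMIs of Crabp1 (horizontal axis) and Stra8 (vertical axis, logarithmic above 1) per cell in the spermatogonium-like cluster (52 cells) and the Sdk1-led early spermatocyte-like cluster (47 cells); the area of a circle grows with the number of cells at that point. In the first panel 25 cells lie off both axes of zero, and in the second every cell lies at 0 Crabp1 UMIs.

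Over all 9 genes, 81 pairs of neighbouring classes were compared within mice, and 19 pairs had the same order in 6 of 6 mice. For each of these 19 the two-sided exact sign-flip permutation test gave p = 0.031, the smallest that 6 mice allow, and a Benjamini-Hochberg adjusted p of 0.133, so no pair passed the threshold of 0.05. With 81 pairs, a pair could pass only if far more of them had reached that smallest p, whatever the size of its difference. The classes were also ranked on the means of the same 6 mice. A p above the threshold does not show that the other neighbours are alike.

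By the shape of the profile over the 13 classes, each member had close company among 14346 genes, measured by Pearson's r of log2(mean CPM + 1) as a description without a test. The points share libraries, and the classes were named by markers, Col1a1 among them. Nearest to Cyp26b1 were Igsf10 (r = 0.987), Col1a1 (0.985) and Eln (0.984). Nearest to Aldh1a1 were Igfbp7 (0.932), Ldhd (0.928) and Mme (0.927), to Aldh1a2 Spint2 (0.905), Srp19 (0.904) and Hspa9 (0.901), and to Rdh10 Lmbrd2 (0.955), Otud1 (0.936) and Ufd1 (0.924). For Stra6 they were Gm30954 (0.954), Pax5 (0.948) and 4933405E24Rik (0.936), and for Crabp1 Sall4 (0.996), 2410018L13Rik (0.996) and Radx (0.993). Stra8 was closest to Hist1h2bm (0.988), Gm15262 (0.982) and Gm4969 (0.981). For the receptors they were Itpk1 (0.896), Gm12840 (0.885) and Pik3cd (0.879) with Rara, and Zc3h12a (0.972) and Btbd11 (0.970) with Rarg.

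Turning to nicotine, no member passed the test in any class. A gene that did not pass is not thereby shown to be unchanged. In simulated counts, the test recovered 37.3% of 2-fold changes in stromal-like, 43.3% in Leydig-like, 80.6% in Sertoli-like and 88.1% in round spermatid-like cells. Those counts gave all genes of a class the same dispersion and changed 67 genes by 2-fold, beside others by 1.5-fold and 4-fold. The recovery for a single member in the real counts may therefore differ. The 9 genes gave 35 gene and class pairs with enough UMIs to test, and 0 of the 35 passed at an adjusted p of 0.05 in edgeR's quasi-likelihood test with Benjamini-Hochberg adjustment over all genes of the class. The share of all genes that passed was 0.0% in stromal-like, Leydig-like, early spermatocyte-like, late spermatocyte-like, round spermatid-like, low-UMI elongating spermatid-like and low-UMI round spermatid/elongating spermatid-like cells, 0.0133% in elongating spermatid-like, 0.251% in Sertoli-like and 2.09% in low-UMI round spermatid-like cells. Summed over all kept cells of a mouse, 0 of 9 members passed, against 0.264% of all 21998 genes (56 lower and 2 higher); 3 of the 9 had an unadjusted p under 0.05, as had 1555 of all genes. DESeq2 called 1 of the 9, and 183 of all genes (0.832%). In such sums over the whole testis, fewer cells of a type and less RNA per cell cannot be told apart.

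Cyp26b1 was the member with the smallest p. Over all kept cells it stood at 4.21, 3.51 and 5.09 CPM in control and 2.11, 2.88 and 2.07 CPM in nicotine mice, so that the groups did not overlap. The log2 difference of nicotine against control was -0.85 (SE 0.168), with an adjusted p of 0.0815 in edgeR's quasi-likelihood test with Benjamini-Hochberg adjustment. DESeq2 gave -0.84 with an adjusted p of 0.00123, edgeR without a filter on low counts 0.0272, and edgeR without nicotine replicate 2 gave -1.01 with 0.0416; the other settings gave adjusted p values of 0.0501 to 0.415. The call thus depended on the tool, the filter and 1 library. Of all genes, 6.84% were lower in every nicotine than in every control mouse and 3.88% higher. Of the 9 members 2 were lower in that sense, Cyp26b1 and Aldh1a1, and 0 higher.

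Counted the same way within classes, 6 of the 35 pairs were lower in every nicotine mouse, in 5 classes and described below, and 0 were higher. Over all genes tested in those 5 classes the shares lower and higher in every nicotine mouse were 7.14% and 5.97% in stromal-like, 10.1% and 8.22% in low-UMI round spermatid-like, 4.81% and 4.25% in low-UMI round spermatid/elongating spermatid-like, 1.84% and 11.1% in elongating spermatid-like and 3.01% and 10.6% in low-UMI elongating spermatid-like cells. In the other 5 classes no member with enough UMIs to test had groups that were apart. There the shares of all genes lower and higher were 6.11% and 7.39% in Sertoli-like, 4.04% and 4.28% in Leydig-like, 5.6% and 3.58% in early spermatocyte-like, 7.71% and 6.12% in late spermatocyte-like and 3.29% and 4.21% in round spermatid-like cells.

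In the stromal-like cells, which held most of its UMIs, Cyp26b1 differed by -0.30 (SE 0.197) on the log2 scale, adjusted p = 0.754 in edgeR's quasi-likelihood test with Benjamini-Hochberg adjustment, although the lowest control mouse (1205 CPM) was above the highest nicotine mouse (1161 CPM). With single cells gated as stromal by markers instead, the groups overlapped, at 1002, 1011 and 1056 CPM in control and 1003, 1028 and 648 CPM in nicotine mice. Stromal-like cells were 0.280%, 0.216% and 0.382% of the kept UMIs in control and 0.156%, 0.229% and 0.185% in nicotine mice. Within them the Fhl2-led cluster made up 36.7%, 40.0% and 27.7% of cells in control and 12.9%, 18.5% and 30.4% in nicotine mice, from 8 to 40 cells. The part of these shares in the whole-testis difference was not tested.

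**Figure D4:**
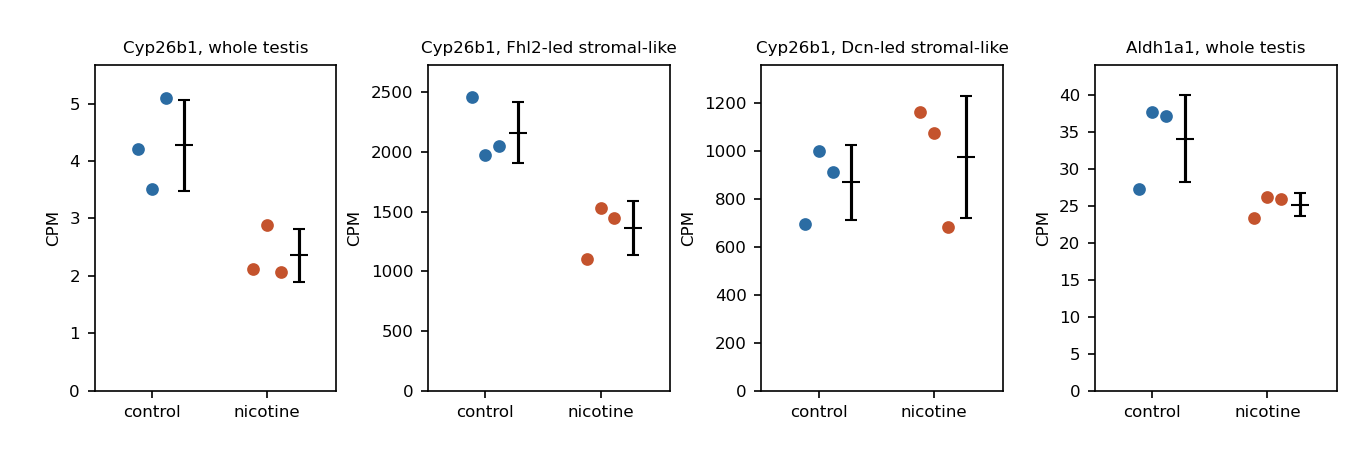
Level in CPM by mouse of Cyp26b1 over all kept cells and in the Fhl2-led and Dcn-led stromal-like clusters, and of Aldh1a1 over all kept cells; points are mice (blue control, orange nicotine) and black bars mean ± SD over 3 mice. Cyp26b1 lies at 3.51 to 5.09 CPM in control and 2.07 to 2.88 CPM in nicotine mice over all kept cells, at 1975 to 2457 and 1104 to 1532 CPM in the Fhl2-led cluster, and at 694 to 998 and 682 to 1162 CPM in the Dcn-led cluster.

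Aldh1a1 stood at 27.3, 37.7 and 37.2 CPM over all kept cells of control and at 23.4, 26.2 and 25.9 CPM of nicotine mice. The groups did not overlap, and the log2 difference was -0.41 (SE 0.105), adjusted p = 0.169 in edgeR's quasi-likelihood test with Benjamini-Hochberg adjustment. Inside Leydig-like cells, which held most of it, the difference was 0.09 (SE 0.149), adjusted p = 1.00. Leydig-like cells were 0.673%, 0.948% and 0.730% of kept UMIs in control and 0.467%, 0.433% and 0.427% in nicotine mice, with no overlap; the part of that share in the Aldh1a1 difference was not tested. In both elongating spermatid-like classes, regular and low-UMI, Aldh1a1 was low and lower in every nicotine mouse, with 2.06, 2.19 and 2.76 against 1.4, 1.58 and 1.97 CPM in elongating spermatid-like cells (log2 difference -0.54, SE 0.207, adjusted p = 0.994 by the same test). In low-UMI elongating spermatid-like cells, at 7.47, 11.4 and 8.49 against 2.10, 4.78 and 5.02 CPM, the difference was -1.24 (SE 0.416, adjusted p = 0.699 by the same edgeR test with Benjamini-Hochberg adjustment). Such order was shared by 1.84% and 3.01% of all genes tested in these 2 classes.

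Rdh10 was lower in all nicotine mice in 2 classes, where 10.1% and 4.81% of all tested genes were. In low-UMI round spermatid-like cells it was at 11.5, 17.3 and 14.8 CPM in control and 10.2, 7.97 and 11.2 CPM in nicotine mice, a log2 difference of -0.56 (SE 0.228) with an adjusted p of 0.237 in edgeR's quasi-likelihood test with Benjamini-Hochberg adjustment. In low-UMI cells with markers of both spermatid stages it was at 117, 101 and 105 CPM against 90.4, 100 and 84.3 CPM, a difference of -0.25 (SE 0.132). Rara was the other member lower throughout in the latter class, at 10.5, 9.71 and 11.7 against 8.65, 6.19 and 7.51 CPM, a difference of -0.50 (SE 0.329); neither passed, with an adjusted p of 0.991 for both by the same edgeR test with Benjamini-Hochberg adjustment. In round spermatid-like cells Rdh10 differed by 0.23 (SE 0.118), in the opposite direction and also without passing the test (edgeR's quasi-likelihood test, Benjamini-Hochberg adjusted p = 1.00).

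The spread of Stra8 between mice was wide. In early spermatocyte-like cells it was at 41.3, 25.7 and 17 CPM in control and 22.0, 7.63 and 10.0 CPM in nicotine mice, a log2 difference of -1.06 (SE 0.392) with an adjusted p of 1.00 in edgeR's quasi-likelihood test with Benjamini-Hochberg adjustment. The groups overlapped, and with cells gated by markers in place of clusters the difference was 0.52. That gate took 7113 cells as early spermatocytes, at 1.72 CPM of Stra8 pooled over mice, against 499 cells in the cluster class. Of all Stra8 UMIs, 64.1% fell in cells gated as spermatogonia, so the gated set does not hold the same cells. Over all kept cells the control mice were at 1.55, 0.561 and 0.823 CPM and the nicotine mice at 0.560, 0.439 and 0.566 CPM, a difference of -0.92 (SE 0.4, adjusted p = 0.704 by the same edgeR test with Benjamini-Hochberg adjustment). The number of Sdk1-led cells, 5, 7 and 11 in control and 14, 5 and 5 in nicotine mice, limits what these libraries can show. Crabp1 was at 0.561, 0.704 and 0.640 CPM over all kept cells of control and 0.672, 0.249 and 0.905 CPM of nicotine mice, and spermatogonium-like cells were too few to test.

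None of the remaining members passed over the whole testis. On the log2 scale their differences were 0.18 (SE 0.118) for Rdh10, 0.10 (SE 0.138) for Stra6, 0.03 (SE 0.084) for Rara, -0.05 (SE 0.375) for Crabp1, -0.11 (SE 0.109) for Aldh1a2 and -0.20 (SE 0.189) for Rarg. Aldh1a2, the member with the most UMIs, differed by 0.09 (SE 0.121) in early and -0.03 (SE 0.099) in late spermatocyte-like cells, by 0.13 (SE 0.237) in Leydig-like and by -0.02 (SE 0.181) in Sertoli-like cells. In Sertoli-like cells Aldh1a1 differed by -0.27 (SE 0.174) and Rara by 0.47 (SE 0.343). None of these passed the test.

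**Figure D5:**
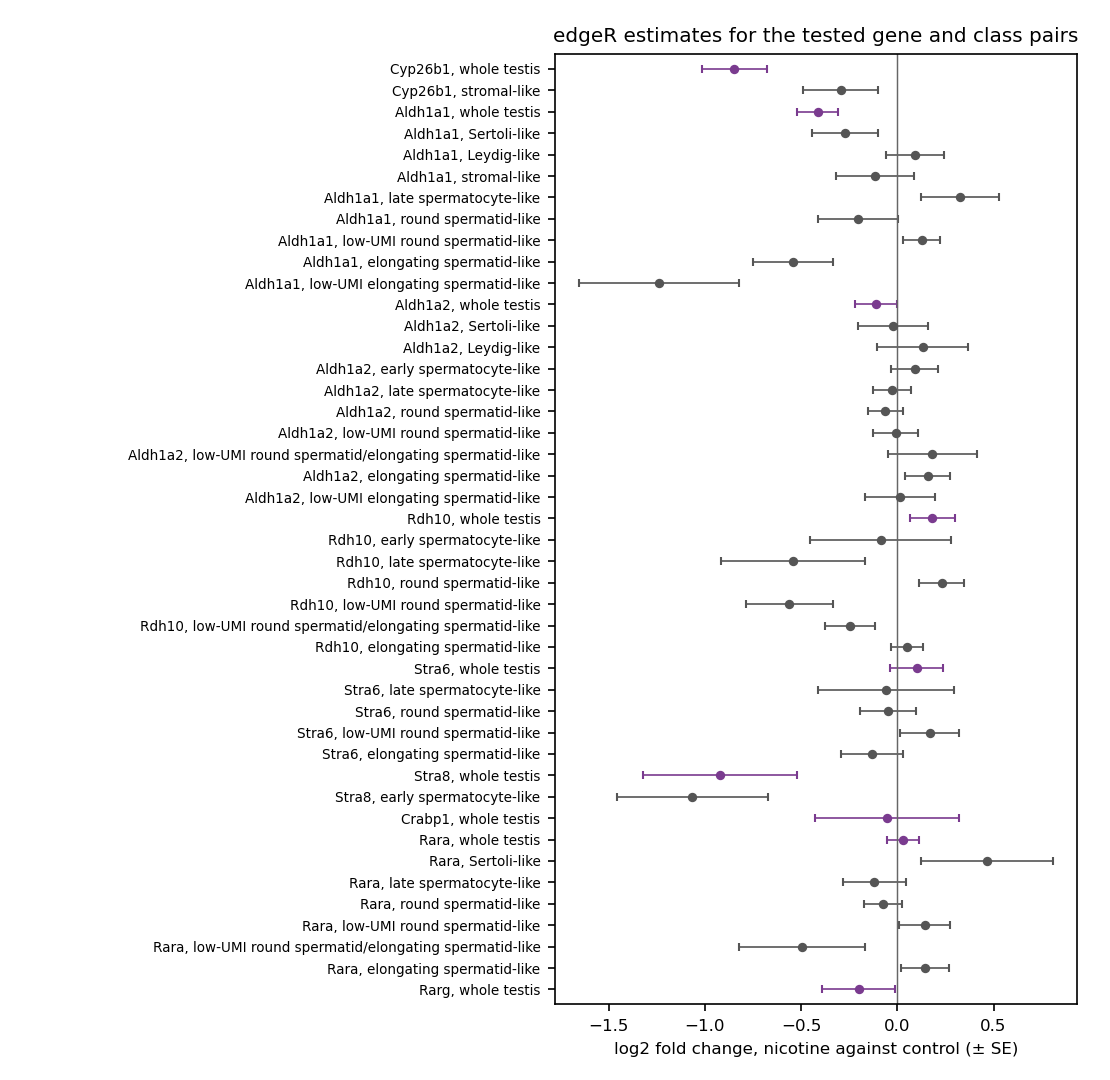
Log2 difference of nicotine against control for each member in each class where it could be tested, and over the whole testis (purple), as the estimate of edgeR ± SE. Estimates run from -1.24 for Aldh1a1 in low-UMI elongating spermatid-like cells to 0.47 for Rara in Sertoli-like cells, and no point passed the test.

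The members belong to a list of 62 retinoid genes, of which 61 were found by symbol. In single classes 210 pairs of list gene and class were tested, members included, and 0 passed. Over the whole testis 50 list genes were tested, 2 of them passed in the lower and 0 in the higher direction, and their median log2 difference was -0.06, against 0 over all genes. In all 15 of the 50 had an unadjusted p under 0.05, against 1555 of all 21998 genes, and 5 passed with DESeq2, against 0.832% of all genes. Of the 2, Fabp5 is described here and was named after its values were seen. Fabp5, a fatty acid binding protein that can also carry retinoic acid, fell from 6.16, 6.91 and 5.94 CPM in control to 3.94, 3.86 and 3.44 CPM in nicotine mice, by 0.74 on the log2 scale (SE 0.101, adjusted p = 0.0232 in edgeR's quasi-likelihood test with Benjamini-Hochberg adjustment).

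The Fabp5 call rested on several libraries. In edgeR's test with Benjamini-Hochberg adjustment, its adjusted p was 0.0503 when control replicate 2 was left out, 0.0633 without the third control mouse and 0.164 without nicotine replicate 1, at differences of -0.80 to -0.71 over all mice left out in turn. Fabp5 was highest in Leydig-like cells, at 313 ± 67.4 CPM, the class whose UMI share was lower in nicotine mice, followed by Sertoli-like cells (150 ± 20.9 CPM) and stromal-like cells (70.8 ± 23.4 CPM). Within Leydig-like cells it differed by -0.47 (adjusted p = 1.00 by edgeR's test with Benjamini-Hochberg adjustment). The part of the Leydig-like share in the fall was not tested.

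The other retinoid genes filled out the same map of classes. Leydig-like cells also held the alcohol dehydrogenase genes Adh5 (362 CPM) and Adh1 (56.2 CPM), the retinal reductase gene Dhrs3 (106 ± 14.5 CPM) and Aldh1a7 (151 ± 20.2 CPM), a near copy of Aldh1a1 in the mouse whose reads could be split with it. Stromal-like cells held the third retinaldehyde dehydrogenase, Aldh1a3 (90.9 ± 26.1 CPM). Late spermatocyte-like cells had the retinal reductase gene Rdh11 (200 ± 13.6 CPM), and late spermatocyte-like and round spermatid-like cells had Lrat (26.9 and 25.3 CPM), which stores retinol as esters. Elongating spermatid-like cells had Lipe, a lipase that can release retinol from esters (198 ± 9.11 CPM), and Bco1, which cleaves carotene (76.9 ± 7.42 CPM). Spermatogonium-like cells held Rbp4, the carrier of retinol in plasma (122 ± 65.2 CPM).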

How the data were processed

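Droplet libraries (10x 3' v3) of the testes of 6 mice, 1 per mouse, gave UMI counts for each gene in each cell, whole numbers that the authors deposited without normalization; they used Cell Ranger 7.2.0 and GRCm38 (mm10), per the submitters' processing notes. Strand use and the counting of intronic reads were not given in the sources used here.

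Kept cells had at least 500 UMIs, at least 250 genes and a mitochondrial share under 20%. Scrublet's own threshold called 0% to 1.29% of cells per library and was not used; the highest-scoring cells, 0.8% per 1000 cells, were removed (8.62% to 9.76%). After scaling to 10000 UMIs a cell and a log transform, 2000 variable genes without the retinoid list, 30 principal components, 15 neighbours and Leiden resolution 1 gave the clusters (Python 3.11.15, scanpy 1.11.5, leidenalg 0.10.2). A class name needed at least 3 markers at 1.5-fold or more in at least 10% of cells and a cluster of at least 30 cells. These names were rebuilt from the counts and may not match the study's own.

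Sums of UMI counts over the cells of a class in a mouse (at least 20 cells in every mouse, 10 classes) were tested as nicotine against control with edgeR 4.0.16 in R 4.3.3 (quasi-likelihood, robust, filterByExpr, TMM), Benjamini-Hochberg adjusted at 0.05 over all genes of the class. The code was tested on simulated data. Macrophage-like, lymphocyte-like and spermatogonium-like cells were too few to test. Neighbouring classes were compared on log2(CPM + 1) by an exact sign-flip permutation test. A count of 0 allows up to 3 counts; intervals (exact, 95%) and floors cover counting error only. Named were all members, list genes that passed the test, and the 3 genes nearest to each member by r. Of the genes this rule names or the list test called, 2 are not reported here. The alternatives were DESeq2 1.42.0, no TMM, no filter, a replicate block, each mouse left out, doublets kept, at least 1000 UMIs per cell, and marker gates. Gene positions come from GENCODE vM21 on GRCm38, where 32158 of 32285 features were found by ID. The members and lists were chosen with earlier results of these data known. Labels give no batch or date.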

Additional observations from a re-analysis of the deposited data

Results flagged for a closer look

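Signals stood out in 2 clusters that received no class name and entered no comparison, each at least 10 times the level of all kept cells. Cyp26b1 was at 61.4 CPM in a cluster of 212 cells led by Cldn5 and Rgs5 (42 UMIs, 2.94% of its total, exact Poisson interval 44.3 to 83.0 CPM), against 3.41 CPM over all kept cells. Crabp1 was at 14.5 CPM in a cluster of 544 cells led by Gml (41 UMIs, 15.9% of its total, interval 10.4 to 19.7 CPM), against 0.616 CPM over all kept cells. The intervals cover counting error only.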

How the results depend on the processing

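No member passed the test within a class under any setting tried. Over the whole testis 1 of 9 passed with DESeq2 or without a filter on low counts, and 0 to 1 with a mouse left out (1 without nicotine replicate 2), Cyp26b1 each time. List genes called over the whole testis numbered 5 with DESeq2, 4 without a filter, 3 with doublets kept and 0 to 2 with a mouse left out, against 2. With doublets kept 2 list genes, against 0, passed in late spermatocyte-like cells, where 10.1% of all genes tested passed. Replicate numbers mark different mice, and the labels give no batch. The deviations of same-numbered mice correlated with r of -0.049, 0.368 and 0.033. With 3 mice a group, these values do not settle whether same-numbered mice share a batch. With the replicate block 0 members and 2 list genes passed over the whole testis. The genes called went from 58 to 73 there, from 20 to 157 in Sertoli-like and from 294 to 658 in low-UMI round spermatid-like cells. Among all genes the counts also moved with other settings: over the whole testis 140 without a filter, 183 with DESeq2, 128 with doublets kept and 0 to 48 with a mouse left out; in Sertoli-like cells 9 with library totals, 83 without a filter, 4 with DESeq2, 39 with doublets kept, 0 with marker gates or the stricter cell filter and 1 to 72 with a mouse left out; in low-UMI round spermatid-like cells 140 with DESeq2, 0 with the stricter filter or doublets kept and 50 to 512 with a mouse left out; in late spermatocyte-like cells, from 0, 257 without a filter, 50 with DESeq2, 1071 with doublets kept and 0 to 216 with a mouse left out. In elongating spermatid-like cells, from 2, they were 1 with library totals, 19 without a filter, 7 with the replicate block, 5 with DESeq2, 4 with the stricter filter, 9 with doublets kept and 0 to 6 with a mouse left out. The other classes, from 0, gave at most 16 with a mouse left out, 36 with the replicate block (both in low-UMI elongating spermatid-like cells), 13 without a filter, 2 with DESeq2, 6 with marker gates and 1 with the stricter filter or doublets kept. Classes formed only under a setting are not in these counts; with doublets kept they gave 31 genes in low-UMI late and 2 in low-UMI early spermatocyte-like cells.

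Directions that turned were all of differences that had not passed a test, and the cause was not tested. For nicotine against control, with each mouse left out, these were Stra6 (-0.08 to 0.19), Crabp1 (-0.50 to 0.34) and Rara (-0.03 to 0.06) over the whole testis and Aldh1a1 in Leydig-like cells (-0.02 to 0.26). Turned as well were Crabp1 with doublets kept (0.07), Aldh1a2 in early spermatocyte-like cells with doublets kept (-0.22) and with marker gates (-0.11), and Stra8 there with marker gates (0.52). The early spermatocyte gate took 7113 cells, against 499 in the clusters, so the gate values come from a different set of cells. Between classes they were Aldh1a2 in early over late spermatocyte-like cells with doublets kept (-0.75) and the stricter filter (-0.01), Crabp1 in Sertoli-like over early spermatocyte-like cells with doublets kept (-0.09), and, with the stricter filter, Stra8 in early spermatocyte-like over Sertoli-like cells (-0.61) and Rara in low-UMI round spermatid-like over stromal-like cells (-0.26). Depth limits Rarg (236 UMIs), Crabp1 (258) and Stra8 (326).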
